A study of Mus musculus with 20 samples.

Results

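The 9 genes described here, Clec4e, Clec4d, Clec4n, Clec7a, Clec4a1, Clec4a2, Clec4a3, Clec5a and Clec12a, encode C-type lectin receptors of myeloid cells and were taken by gene name from a table of 78409 genes, of which 34373 had a count in at least 1 library. They were chosen by name, with their CPM values and fold changes in these libraries already known, so the levels, fold changes and counts of these 9 genes are a description and carry no test. All 9 passed the filter on low counts in each comparison. The set is described as activating receptors, but as background 2 of its members, Clec4a2 and Clec12a, encode receptors with an inhibitory motif in the cytoplasmic tail.

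The libraries are from bone marrow-derived macrophages (BMDMs), cells grown from wild-type C57BL/6J marrow of female mice for 5 days in medium conditioned by L929 fibroblasts, seeded on day 6 at 200000 cells per well and used on day 7. Mice in the study were between 7 and 16 weeks old. The 20 libraries fall into 5 groups of 4. The first group received PBS, and the others received airway lavage fluid of mice with ovalbumin (OVA)-induced airway inflammation, split by size exclusion chromatography. EVFx is the extracellular vesicle-enriched pool of column fractions 1 to 4, and ProteinFx the protein-enriched pool of fractions 9 to 20. The genotype in a group name is that of the fluid donors: RNY1+/+ donors carry both copies of the gene of the small noncoding Y RNA RNY1, and RNY1-/- donors lack both. Per the paper's methods, the knockout mice came from GemPharmatech, and the rest of the study's mice were C57BL/6J. The sequenced macrophages are wild-type in all 5 groups, so the deleted gene checks no label. EVFx was given at 35000000 particles per µL and ProteinFx at 0.75 µg protein per µL, after 5 days of storage at 4 °C, in serum-free medium. The doses of the fractions are in different units, and how long the cells were exposed is not given in the sources used here. Whether a group's 4 libraries stand for separate fluid pools, mice or wells is not given, so p-values measure the spread between these libraries, which may be technical.

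C-type lectin receptors of macrophages and neutrophils bind sugars, glycolipids and products of dying cells. Most activating members, among them Mincle, reach the kinase Syk through a partner with an ITAM motif, such as the Fc receptor gamma chain (Fcer1g) or DAP12 (Tyrobp). Syk then acts through the Card9, Bcl10 and Malt1 complex on NF-kB and on cytokine genes. Inhibitory members carry an ITIM motif that recruits the phosphatases of the Ptpn6 and Ptpn11 genes. Many of these receptors are encoded close together in a C-type lectin cluster, and the 8 members with a sequence below all lie on mouse chromosome 6.

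Counts came from 3′-end sequencing of poly(A) RNA with unique molecular identifiers, and total counts per library ran from 2510005 to 8277366 (median 5456425). Levels are given as deposited CPM, a count divided by the library's total count and scaled to a fixed total, as mean ± SD of n = 4 libraries, and are compared only within a gene. Fold changes are from edgeR with TMM scaling and can differ from the ratio of CPM means. Among 9 macrophage markers, all were detected in every group, with a summed level between 8710 and 14350 CPM. Of 12 neutrophil markers, the summed level had medians of 365.5 CPM with PBS, 191.5 with RNY1+/+ EVFx, 255.1 with RNY1-/- EVFx, 338.3 with RNY1+/+ ProteinFx and 388.4 with RNY1-/- ProteinFx. Group means ran from 102 to 186 CPM for S100a8, 59.9 to 130 for S100a9, 11.9 to 37.4 for Mmp8 and 9.48 to 26.7 for Csf3r. No other marker of this list had a group mean above 9.85 CPM. Ly6g, a defining neutrophil marker, was at 0 in every group but RNY1+/+ ProteinFx, where its highest count in a library was 1. The 6 monocyte markers summed to 38.3 to 67.7 CPM with PBS, 12.1 to 23.2 with the EVFx of either genotype, 30.1 to 48.5 with RNY1+/+ ProteinFx (median 37.7) and 45.8 to 126.5 with RNY1-/- ProteinFx (median 71.4). No sum of T and NK cell, B cell or dendritic cell markers went above 9.43 CPM, and no sum of eosinophil and mast cell, airway epithelium or fibroblast markers above 51.4 CPM. The part of these marker levels in the results below was not tested. When libraries were scaled by total counts in place of TMM, the median log2 difference of all genes moved by -0.18 for RNY1+/+ EVFx, -0.24 for RNY1-/- EVFx and -0.17 for RNY1+/+ ProteinFx against PBS, and the share of called genes that were higher went from 50.1 to 37.3%, from 40.0 to 24.5% and from 42.0 to 29.4%. That share went from 36.1 to 50.5% between the ProteinFx genotypes, from 55.1 to 68.9% for RNY1-/- ProteinFx against RNY1-/- EVFx and from 68.4 to 87.9% for the interaction, with shifts of 0.09, 0.17 and 0.17. In bulk RNA, fewer cells of a type and less RNA per cell cannot be told apart. Gene by gene, PBS replicate 3 stood apart from the other PBS libraries, and the RNY1-/- ProteinFx libraries fell into 2 pairs, replicates 1 and 2 and replicates 3 and 4, with smaller differences within a pair than between pairs.

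Clec4e and Clec12a were the members whose window of 250 bases before the RefSeq transcription start (build GRCm38.p6) held a C/EBP motif, spelled TTNNGCAA. C/EBP factors, Cebpb among them, are regulators of Clec4e as background, and Cebpb and Cebpd levels follow below. The windows of Clec4e, of Clec4d, which encodes its partner, and of Clec12a are shown to set the gene with the widest range of levels beside 2 that did not share its pattern. Capitals mark C/EBP matches, PU.1/ETS matches (GAGGAA) and TATA matches (TATAAA) on either strand. Clec4e lies at chr6:123289872-123290121, minus strand, Clec4d at chr6:123261857-123262106, plus strand, and Clec12a at chr6:129349994-129350243, plus strand.
Clec4e: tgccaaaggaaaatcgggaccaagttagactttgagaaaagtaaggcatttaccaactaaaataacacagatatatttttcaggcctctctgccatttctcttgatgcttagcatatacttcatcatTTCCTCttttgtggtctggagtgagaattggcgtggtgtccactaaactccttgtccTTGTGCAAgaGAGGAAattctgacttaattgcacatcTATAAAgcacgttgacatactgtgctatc
Clec4d: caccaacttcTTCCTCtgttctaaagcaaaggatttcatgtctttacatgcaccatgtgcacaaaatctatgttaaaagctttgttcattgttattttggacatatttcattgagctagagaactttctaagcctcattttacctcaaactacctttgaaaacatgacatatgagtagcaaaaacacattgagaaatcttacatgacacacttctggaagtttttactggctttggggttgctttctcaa
Clec12a: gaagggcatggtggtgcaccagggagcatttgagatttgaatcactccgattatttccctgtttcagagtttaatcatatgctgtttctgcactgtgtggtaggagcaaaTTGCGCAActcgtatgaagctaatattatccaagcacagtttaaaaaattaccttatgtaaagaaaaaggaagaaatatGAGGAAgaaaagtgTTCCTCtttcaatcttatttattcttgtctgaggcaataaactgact
In Clec4e the C/EBP match ended 58 bases before the start, a PU.1/ETS match ended 50 bases before it, a further one ended 117 bases before it on the other strand, and the TATA match ended 23 bases before it. These 3 motifs did not overlap in the printed windows. The motifs were chosen after the sequences had been seen.

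Of the 8 members with a window, all but Clec4n, 2 had a C/EBP match, against 9.56% of 32851 mouse promoter windows of the same length searched on both strands. PU.1/ETS was matched in 7 of 8, all but Clec4a2, against 23.3% of the windows, and TATA in 3, Clec4e, Clec4a2 and Clec5a, against 12.4%. Members are counted by gene and the shares by window. Clec7a and Clec4a3 had 2 windows each, and for Clec4a3 only the second held a PU.1/ETS match. An AP-1 motif (TGANTCA) was found in 1, Clec12a, against 6.75%, and a GAS motif (TTCNNNGAA) in 1, Clec4a2, against 7.02%. No member's window held an ISRE motif, found in 2.98% of the windows, or an NF-kB motif, found in 1.41%. A match says that the letters are present, not that a factor binds there.

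Clec4e (ENSMUSG00000030142) encodes Mincle, which binds mycobacterial trehalose dimycolate, other glycolipids and the nuclear protein SAP130 released by dying cells. Its level was low with PBS, at 21.3, 18.8, 21.5 and 17.8 CPM (19.9 ± 1.83), and high with EVFx of either genotype. With RNY1+/+ EVFx it stood at 2732, 3090, 3293 and 3032 CPM (3037 ± 232). With RNY1-/- EVFx the 4 libraries held 2492, 2484, 2810 and 3560 CPM (2837 ± 506). The EVFx groups overlapped with each other and lay above all other libraries. RNY1+/+ ProteinFx gave 652, 785, 595 and 1234 CPM (817 ± 289), the highest of them in replicate 4. RNY1-/- ProteinFx gave 156, 163, 210 and 182 CPM (178 ± 24.0). The groups were thus ordered PBS, RNY1-/- ProteinFx, RNY1+/+ ProteinFx and the overlapping EVFx groups, with no overlap between neighbours up to the EVFx groups.

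Clec4d (ENSMUSG00000030144) encodes MCL, also called Dectin-3, which pairs with Mincle at the cell surface and with the Fc receptor gamma chain. It was already well above the detection floor with PBS, at 961, 894, 946 and 1139 CPM (985 ± 106). RNY1+/+ EVFx gave 1009, 949, 1163 and 1042 CPM (1041 ± 90.0), and RNY1-/- EVFx gave 1001, 948, 1039 and 1084 CPM (1018 ± 57.8). These 3 groups overlapped. With RNY1+/+ ProteinFx it was lower in all 4 libraries, at 642, 592, 671 and 666 CPM (643 ± 35.8), and RNY1-/- ProteinFx lay below these without overlap, at 583, 522, 533 and 527 CPM (541 ± 28.2). Clec4d therefore had none of the wide range of Clec4e.

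Clec4n (ENSMUSG00000023349) encodes Dectin-2, a receptor for fungal mannans that signals through the Fc receptor gamma chain. PBS libraries held 75.4, 77.9, 27.4 and 66.2 CPM (61.7 ± 23.4), the lowest in replicate 3, the library that stood apart. With RNY1+/+ EVFx the values were 152, 148, 167 and 167 CPM (158.5 ± 10.1), and with RNY1-/- EVFx 96.1, 105, 115 and 86.0 CPM (100.5 ± 12.2). Both EVFx groups lay above PBS, and they did not overlap with each other. ProteinFx libraries lay below PBS, at 7.85, 11.9, 9.30 and 3.99 CPM with RNY1+/+ (8.26 ± 3.31) and 21.3, 18.7, 11.2 and 9.99 CPM with RNY1-/- (15.3 ± 5.59), and these groups overlapped. Clec4n was thus above PBS with one fraction and below it with the other.

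Clec7a (ENSMUSG00000079293) encodes Dectin-1, the receptor for fungal β-glucan, which carries its own activating motif and needs no Fc receptor gamma chain. With PBS it was at 291, 305, 339 and 344 CPM (320 ± 25.9). With EVFx it was lower in all 8 libraries, at 77.6, 74.3, 115 and 89.9 CPM for RNY1+/+ (89.1 ± 18.3) and 90.4, 85.5, 137 and 101 CPM for RNY1-/- (103.5 ± 23.5), with overlap between the genotypes. RNY1+/+ ProteinFx gave 281, 218, 416 and 251 CPM (291 ± 86.8) and overlapped with PBS. RNY1-/- ProteinFx gave 380, 407, 430 and 442 CPM (415 ± 27.1), above each PBS library.

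Clec5a (ENSMUSG00000029915) encodes MDL-1, which signals through DAP12 and DAP10. Its level was low throughout, at 12.5, 13.4, 16.5 and 13.2 CPM with PBS (13.9 ± 1.76). RNY1+/+ EVFx gave 17.7, 22.02, 16.6 and 17.8 CPM (18.5 ± 2.39), and RNY1-/- EVFx gave 17.2, 17.6, 18.97 and 20.5 CPM (18.6 ± 1.51). RNY1+/+ ProteinFx gave 16.5, 17.7, 17.1 and 16.3 CPM (16.9 ± 0.655), and RNY1-/- ProteinFx gave 24.7, 19.2, 23.9 and 18.7 CPM (21.6 ± 3.15). In the order of group means, each group overlapped with the next, and the means of the lowest and highest were 13.9 and 21.6 CPM. Set against PBS alone, both EVFx groups and RNY1-/- ProteinFx lay above it without overlap, while RNY1+/+ ProteinFx overlapped with it.

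Clec4a1, Clec4a2 and Clec4a3 encode receptors of the DCIR family. Clec4a2 (ENSMUSG00000030148) is DCIR itself, with an inhibitory ITIM, while Clec4a1 (ENSMUSG00000049037) and Clec4a3 (ENSMUSG00000043832) lack one. All 3 were above PBS in each library of each treated group. Clec4a1 was at 91.4, 99.95, 95.6 and 109 CPM with PBS (99.0 ± 7.52). RNY1+/+ EVFx gave 447, 475, 352 and 398 CPM (418 ± 54.3), and RNY1-/- EVFx gave 447, 441, 295 and 320 CPM (376 ± 79.4). RNY1+/+ ProteinFx gave 567, 519, 491 and 542 CPM (529.6 ± 32.3), and RNY1-/- ProteinFx gave 481, 495, 327 and 364 CPM (416.5 ± 83.8). RNY1+/+ ProteinFx, the highest group by mean, did not overlap with either EVFx group. It did overlap with RNY1-/- ProteinFx, its lowest library at 491 CPM beside the highest there at 495. The other treated groups overlapped with each other. Counts of these 3 genes were fractional in 12 to 19 of the 20 libraries, because reads that map to several genes were shared out, so part of each value can belong to a close relative.

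Clec4a2 was at 132, 122, 146 and 149 CPM with PBS (137 ± 12.6). It was at 274, 265, 214 and 256 CPM with RNY1+/+ EVFx (252 ± 26.5) and at 284, 265, 261 and 272 CPM with RNY1-/- EVFx (270.5 ± 10.01). With RNY1+/+ ProteinFx it was highest, at 379, 410.3, 354 and 373 CPM (379 ± 23.3), and RNY1-/- ProteinFx, at 253, 291, 298 and 309.6 CPM (288 ± 24.6), lay below it without overlap. For Clec4a3 the PBS libraries held 49.6, 52.2, 45.6 and 48.4 CPM (49.0 ± 2.75). RNY1+/+ EVFx gave 92.0, 93.6, 78.4 and 88.3 CPM (88.1 ± 6.84), and RNY1-/- EVFx gave 98.4, 103, 76.1 and 65.9 CPM (85.9 ± 17.8). The ProteinFx groups overlapped with each other, at 133, 139, 133 and 124 CPM for RNY1+/+ (132 ± 6.33) and 164, 178, 115 and 123 CPM for RNY1-/- (145 ± 30.8).

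Clec12a (ENSMUSG00000053063) encodes MICL, an inhibitory receptor that recognises uric acid crystals of dead cells. It was highest with PBS, at 462, 451, 324 and 422 CPM (415 ± 63.0). RNY1+/+ EVFx gave 232, 226, 185 and 222 CPM (216 ± 21.4), and RNY1-/- EVFx gave 188, 195, 145 and 162 CPM (172.5 ± 23.5). RNY1+/+ ProteinFx gave 254, 228, 264 and 243 CPM (247 ± 15.7), all below the PBS libraries. RNY1-/- ProteinFx gave 333, 351, 241 and 233 CPM (289.5 ± 61.4), and its upper pair overlapped with PBS replicate 3. In RNY1-/- ProteinFx, replicates 1 and 2 were above replicates 3 and 4 for Clec4n, Clec4a1, Clec4a3 and Clec12a, and below them for Clec4e, Clec7a and Clec4a2, the split already seen between these libraries.

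**Figure D1:**
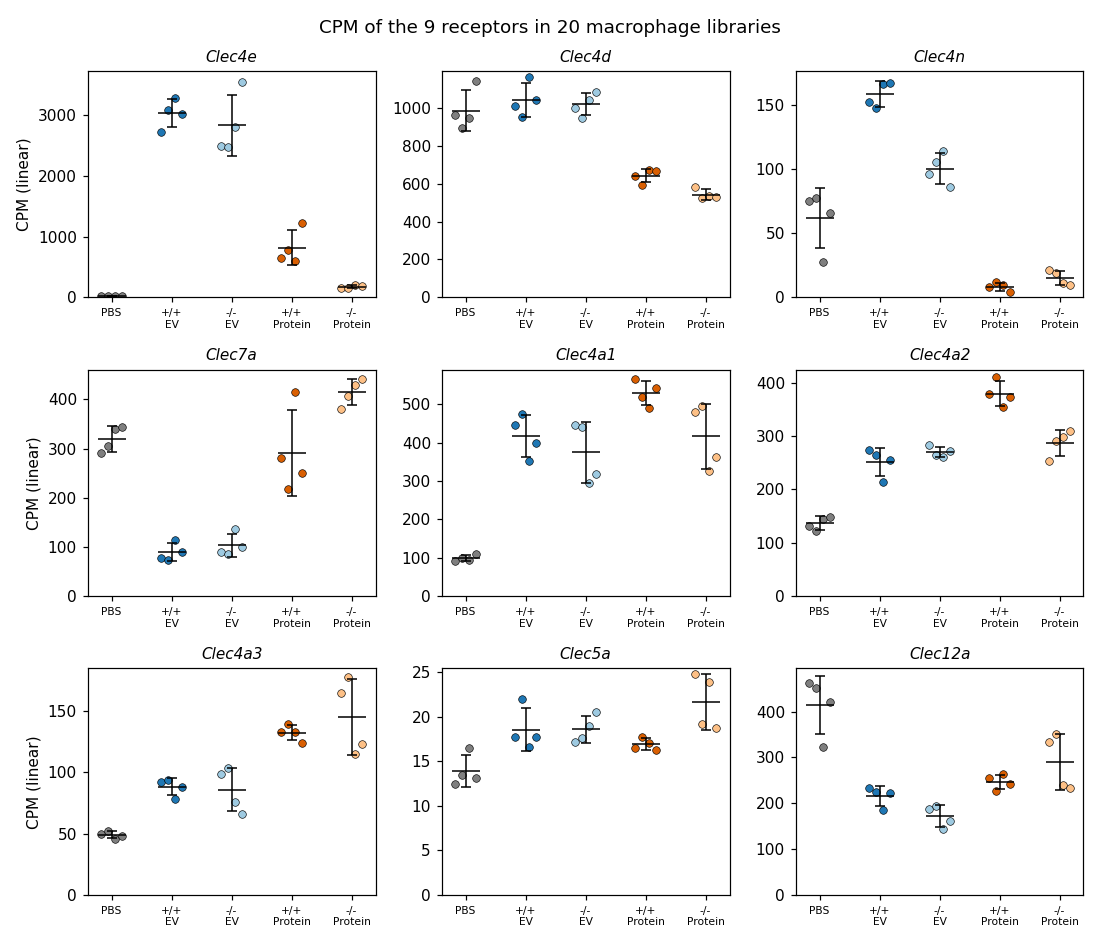
CPM (linear axis from 0, its own range in each panel) of the 9 receptor genes in the 20 libraries, with +/+ and -/- the genotype of the fluid donors. Points are libraries, and bars are the group mean ± SD (n = 4). Clec4e goes from a mean of 19.9 CPM with PBS to 3037 with RNY1+/+ EVFx, and Clec4n lies above PBS with EVFx and below it with ProteinFx.

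Against PBS, RNY1+/+ EVFx macrophages had more Clec4e, Clec4a1, Clec4n, Clec4a2 and Clec4a3 transcript and less Clec7a, where a gene was called if its adjusted p was under 0.05 and its log2 fold change was above 1 or below -1. That was 5 of 9 members higher, beside 8.24% of the 10797 genes tested, and 1 lower, beside 8.20%. Clec4e was 173-fold higher (log2 7.44, SE 0.14), Clec4a1 4.77-fold (log2 2.25, SE 0.12) and Clec4n 2.89-fold (log2 1.53, SE 0.25). Clec4a2 and Clec4a3 were near the limit, at 2.08-fold and 2.03-fold. Clec7a was 3.18-fold lower, with a log2 difference of -1.67 (SE 0.15), and Clec12a 1.70-fold lower, short of the limit. Scaled by total counts, Clec4a2 (log2 0.88) and Clec4a3 (log2 0.84) fell under the limit, and leaving out PBS replicate 2 or 3 left 5 members called in place of 6. With length and GC trends removed, Clec4a3 was at 0.94, which also left 5. Without the fold limit, 8 members had an adjusted p under 0.05, beside 44.5% of the genes. The median log2 difference of the members was 1.02, and that of all genes tested was -0.03.

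RNY1-/- EVFx was set against the same PBS libraries, so it shares their error with the comparison above. Clec4e was 170-fold higher than with PBS (log2 7.41, SE 0.19), Clec4a1 4.47-fold, Clec4a2 2.33-fold and Clec4a3 2.07-fold, which made 4 members called higher beside 9.01% of 10730 genes. Clec7a was 2.62-fold lower and Clec12a 2.04-fold lower, which made 2 members called lower beside 13.5%. Clec4n, at 1.91-fold higher, fell just short of the limit. Without PBS replicate 1 or 2 its log2 difference was past the limit, at 1.05 and 1.06. Scaled by total counts, Clec4a2 (log2 0.98) and Clec4a3 (log2 0.81) were under the limit here too. The log2 differences of all genes went with GC content (Spearman rho -0.42, across genes), and with length and GC trends removed Clec4a2 (0.80) and Clec4a3 (0.72) were under the limit, with 4 members called in place of 6. Clec12a was under the limit without RNY1-/- EVFx replicate 3 (-0.94) and without PBS replicate 1 (-0.95), 2 (-0.98) or 4 (-0.996), and Clec4a3 without RNY1-/- EVFx replicate 1 (0.98) or 2 (0.97). Without the fold limit the count was 9, beside 58.3% of the genes. The members' median was 0.93 on the log2 scale, and that of all genes was -0.03.

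With RNY1+/+ ProteinFx, Clec4e was 46.5-fold above PBS (log2 5.54, SE 0.26), Clec4a1 6.01-fold, Clec4a2 3.11-fold and Clec4a3 3.03-fold. These were 4 members called higher, beside 8.96% of 10834 genes. The 1 member called lower, beside 12.4%, was Clec4n, at 6.86-fold lower (log2 -2.78, SE 0.35). Clec7a differed from PBS by 0.03 on the log2 scale (SE 0.17), Clec4d by -0.45 (SE 0.11) and Clec12a by -0.58 (SE 0.13). The members' median was 0.45 and that of all genes -0.03. The direction of Clec7a was not stable, with a value of -0.14 when libraries were scaled by total counts and -0.43 with length and GC trends removed. Clec12a was then at -1.11, past the limit, which made 6 members called, and the log2 differences of all genes had a Spearman rho of -0.46 with GC content. An adjusted p under 0.05 with any fold was found for 8 members, beside 55.2% of the genes.

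With RNY1-/- ProteinFx, Clec4e was 9.41-fold above PBS (log2 3.23, SE 0.15), Clec4a1 4.39-fold, Clec4a3 3.09-fold and Clec4a2 2.21-fold, again 4 members called higher, beside 6.31% of 10856 genes. Clec4n was called lower, at 3.80-fold (log2 -1.93, SE 0.34), 1 member beside 7.99%. Clec4d was 1.74-fold lower, Clec5a 1.63-fold higher, Clec12a 1.37-fold lower and Clec7a 1.36-fold higher, none of them past the limit. Over the processing alternatives the log2 difference of Clec7a ran from 0.04 to 0.58. With length and GC trends removed, Clec4a2 was at 0.68, under the limit, and Clec4d at -1.12, past it, so that 5 members were called as before but not the same 5. The Spearman rho of the log2 differences with GC content across genes was -0.50. An adjusted p under 0.05 with any fold was found for 9 members, beside 35.7% of the genes. The members' median was 0.70 and that of all genes -0.03.

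**Figure D2:**
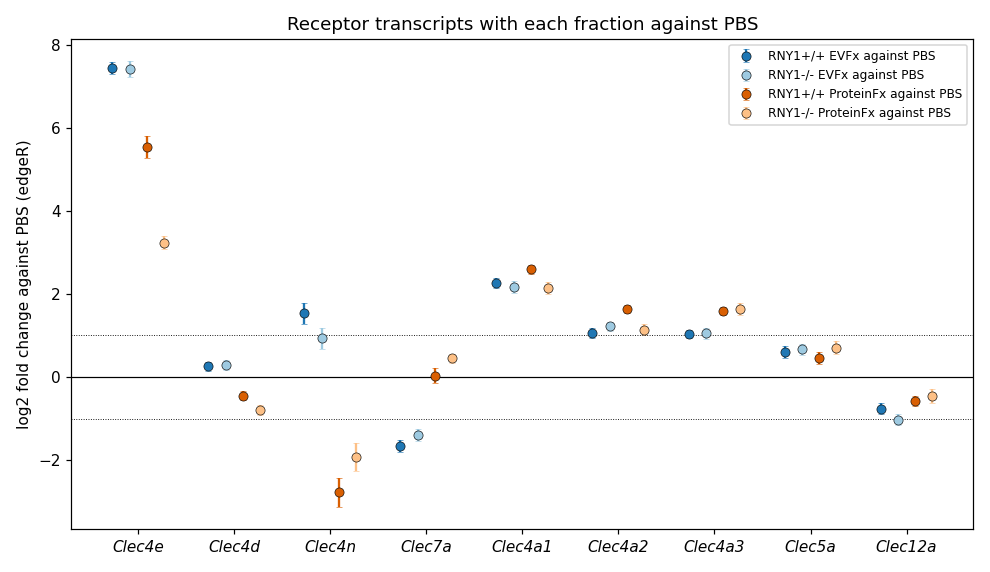
log2 fold change of each receptor gene against PBS from edgeR, with points for the 4 treated groups and bars of ± 1 SE (n = 4 libraries a group). Dotted lines mark 1 and -1. Clec4e runs from 7.44 with RNY1+/+ EVFx to 3.23 with RNY1-/- ProteinFx, and Clec4n changes side between EVFx and ProteinFx.

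The genotype comparison sets fluid of donors with RNY1 against fluid of donors that lack it in the whole animal. The fluids may therefore differ in more than RNY1. The paper states that further work must show whether RNY1 itself starts the signalling or acts indirectly. Between ProteinFx of the 2 genotypes, Clec4e was 4.90-fold lower with RNY1-/- (log2 -2.29, SE 0.22), and each RNY1-/- library lay below each RNY1+/+ library. It was the 1 member called lower, beside 1.17% of 10472 genes, and 0 members were called higher, beside 0.659%. Without replicate 4 of RNY1+/+ ProteinFx, the highest Clec4e library of its group, its 3 remaining values of 595 to 785 CPM still lay above the RNY1-/- maximum of 210 CPM. Smaller differences without overlap were seen for Clec4a2, 1.40-fold lower (log2 -0.48, SE 0.11), Clec4d, 1.26-fold lower (log2 -0.33, SE 0.10), and Clec5a, higher by 0.26 (SE 0.14) on the log2 scale. Clec4n was 1.84-fold higher with RNY1-/- (log2 0.88, SE 0.29) with overlapping groups. Its difference was 1.19 in RNY1-/- replicates 1 and 2 alone, where it was the second member called, and 0.34 in replicates 3 and 4 alone. It was 1.096 without RNY1+/+ ProteinFx replicate 2 and 1.03 without RNY1-/- ProteinFx replicate 4. With no fold limit, 2 members had an adjusted p under 0.05, beside 5.57% of the genes. Monocyte markers differed between these groups too, with F13a1 at a mean of 7.53 CPM with RNY1+/+ and 36.0 with RNY1-/- and Ccr2 at 5.53 and 17.1 CPM, and their part in the genotype differences was not tested.

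Between EVFx of the 2 genotypes, the receptors differed by at most 0.59 on the log2 scale. Clec4e differed by -0.02 on the log2 scale (SE 0.12), Clec4d by 0.04 (SE 0.09) and Clec4a1 by -0.08 (SE 0.13). Clec4n was 1.51-fold lower with RNY1-/- (log2 -0.59, SE 0.09), with no overlap, and Clec12a differed by -0.26 (SE 0.10). No member was called by edgeR, 0 higher beside 0.378% of 10322 genes and 0 lower beside 1.98%, nor by DESeq2, and 2 had an unadjusted edgeR p under 0.05, beside 58.4% of the genes. With no fold limit these 2 also had an adjusted p under 0.05, beside 52.1%. In this comparison the log2 differences of all genes went with GC content of the transcript (Spearman rho -0.65, across genes, which are not independent replicates). With length and GC trends removed, Clec4n was at -0.71, Clec12a at -0.52 and Clec4e at -0.35, and 0 members were called. Of the pathway genes described below, 2 were then called in this comparison in place of 4.

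The genotype difference was itself compared between the fractions with an interaction term over 16 libraries. For Clec4e the difference in ProteinFx minus that in EVFx was -2.27 on the log2 scale (SE 0.27), and for Clec4n it was 1.496 (SE 0.29). They were the 1 member below and the 1 member above the limit, beside 2.46% and 5.33% of 10443 genes. Clec4a2 gave -0.66 (SE 0.14) and Clec4d -0.38, while the other 5 members lay within 0.39 of 0 on either side. With no fold limit, 4 members had an adjusted p under 0.05, beside 33.0% of the genes.

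**Figure D3:**
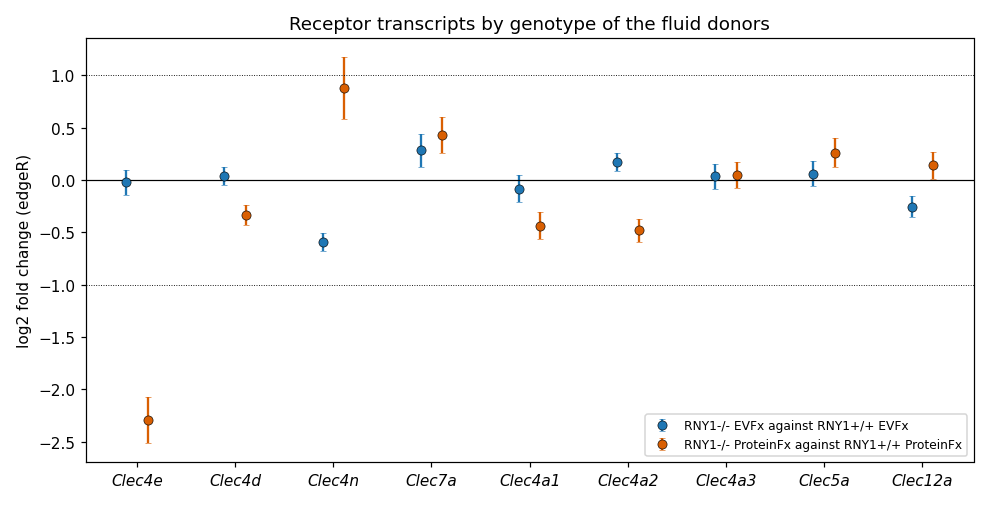
log2 fold change of each receptor gene with RNY1-/- fluid against RNY1+/+ fluid (edgeR), in blue for EVFx and in orange for ProteinFx, with bars of ± 1 SE (n = 4 libraries a group). Dotted lines mark 1 and -1. Clec4e lies at -2.29 in ProteinFx and at -0.02 in EVFx.

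Fractions of 1 genotype were set side by side although their doses are in different units. With RNY1+/+ fluid, ProteinFx macrophages had 19.9-fold less Clec4n than EVFx macrophages (log2 -4.32), 3.70-fold less Clec4e (log2 -1.89, SE 0.19) and 3.27-fold more Clec7a (log2 1.71, SE 0.18). That was 2 members called lower, beside 6.82% of 10443 genes, and 1 higher, beside 6.71%. Clec4d was 1.62-fold lower and not called, and with length and GC trends removed it was at -1.01, which made 4 members called. With no fold limit, 7 members had an adjusted p under 0.05, beside 63.3% of the genes. With RNY1-/- fluid, Clec4e was 17.9-fold lower with ProteinFx (log2 -4.16, SE 0.18), Clec4n 7.09-fold lower (log2 -2.83, SE 0.19) and Clec4d 2.11-fold lower (log2 -1.07, SE 0.10). These were 3 members called lower, beside 4.06% of 10421 genes, and Clec7a, 3.60-fold higher, was the 1 member called higher, beside 4.98%. With no fold limit the members were 6, beside 29.2%. Clec4d was at -0.91 and not called when libraries were scaled by total counts.

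The genes around these receptors were read from lists of 118 genes in 6 roles, which were also chosen with earlier results of these data known. With RNY1+/+ EVFx against PBS, 23 of the 79 pathway genes tested rose and 12 fell. With RNY1-/- EVFx 21 of 78 rose and 10 fell, with RNY1+/+ ProteinFx 23 of 79 rose and 7 fell, and with RNY1-/- ProteinFx 10 of 75 rose and 7 fell. Of all genes tested, 8.24, 9.01, 8.96 and 6.31% were called higher in these comparisons, in that order. The shares called lower were 8.20, 13.5, 12.4 and 7.99%. Counts of single lists against PBS, given below, are to be read beside the same shares. The adjusted p-values below are from edgeR over all genes tested.

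Adaptors of the receptors did not move together. Fcer1g, the Fc receptor gamma chain used by Mincle, MCL and Dectin-2, was at 1507 ± 344 CPM with PBS, 2458 ± 273 with RNY1+/+ EVFx, 1503 ± 214 with RNY1-/- EVFx, 1394 ± 73.8 with RNY1+/+ ProteinFx and 1301 ± 424 with RNY1-/- ProteinFx. Its log2 difference with RNY1+/+ EVFx was 0.88 (SE 0.16, adjusted p 0.0012), short of the fold limit, and between the EVFx genotypes it was -0.64 (SE 0.10, adjusted p 0.00044). Tyrobp, which encodes DAP12, fell in every treated group, from 1371 ± 323 CPM with PBS to means between 442 and 577 CPM, with log2 differences from -1.12 (adjusted p 0.0002) to -1.47 (adjusted p 4e-05). Hcst, which encodes DAP10, fell as well, from 26.2 ± 10.2 CPM to means between 6.72 and 9.48 CPM. Both adaptors of Clec5a thus fell, while Clec5a itself was not lower in any treated group.

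Downstream of the adaptors, 34 of 35 signalling genes were tested with RNY1+/+ EVFx against PBS, and 6 rose and 4 fell. Malt1, the protease of the Card9 complex, rose from 21.4 ± 11.1 to 169 ± 23.5 CPM (log2 3.17, adjusted p 4.9e-06). Nfatc2, a calcium-dependent transcription factor, fell (log2 -1.55, adjusted p 0.00012). Syk had 123 ± 24.7 CPM with PBS and 218 ± 19.9 with RNY1+/+ EVFx, a log2 difference of 0.99 (adjusted p 0.00019) that was just under the limit. With RNY1-/- EVFx 5 rose and 5 fell of 34, with RNY1+/+ ProteinFx 6 rose and 3 fell of 34, and with RNY1-/- ProteinFx 1 rose and 3 fell of 33. The gene that rose there was Lyn, a Src-family kinase, from 140 ± 8.67 to 275 ± 10.6 CPM (log2 1.04, adjusted p 3.3e-05), and the 3 that fell were Tyrobp, Hcst and Rela.

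Between the genotypes, none of 34 signalling genes was called in ProteinFx by edgeR, where 10 had an unadjusted p under 0.05 and 3 an adjusted p under it. Of all 10472 genes tested there, 2019 had an unadjusted p under 0.05 and 5.57% an adjusted p under it. Lyn was at 397 ± 31.3 CPM with RNY1+/+ ProteinFx and 275 ± 10.6 with RNY1-/-, a log2 difference of -0.61 (adjusted p 0.0043). In EVFx, Rela, an NF-kB subunit, fell with RNY1-/- from 25.6 ± 5.96 to 11.5 ± 2.099 CPM (log2 -1.08, adjusted p 0.0004). Syk differed by -0.60 (adjusted p 0.00025) and Card9 by -0.68 (adjusted p 0.016), both short of the limit. All 3 had no overlap between the EVFx genotypes, a comparison in which GC content moved with the differences of all genes.

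Of the 3 regulators of Clec4e, Cebpb and Cebpd rose and Spi1, which encodes PU.1, was called in no comparison. Cebpb was at 299 ± 27.2 CPM with PBS, 1254 ± 15.9 with RNY1+/+ EVFx, 1249 ± 76.5 with RNY1-/- EVFx, 1188 ± 88.4 with RNY1+/+ ProteinFx and 781 ± 46.9 with RNY1-/- ProteinFx. Its log2 differences from PBS were 2.24 (adjusted p 3.9e-08), 2.30 (adjusted p 6e-08), 2.16 (adjusted p 5.6e-08) and 1.45 (adjusted p 5.7e-06). Cebpd had means of 19.7, 54.0, 52.0, 54.9 and 33.4 CPM in the same order of groups and rose in the first 3 treated groups. Between the ProteinFx genotypes Cebpb differed by -0.69 (SE 0.10, adjusted p 0.0021) and Cebpd by -0.82 (SE 0.14, adjusted p 0.0049), both without overlap and short of the fold limit. Between the EVFx genotypes they differed by 0.07 (adjusted p 0.46) and 0.01 (adjusted p 0.89). The difference of the genotype effects was -0.76 for Cebpb (adjusted p 0.0016) and -0.84 for Cebpd (adjusted p 0.0027).

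Among 18 cytokine, chemokine and enzyme genes reported as targets of these receptors, 12 were tested with RNY1+/+ EVFx against PBS, and 9 rose and 2 fell. Cxcl2, a neutrophil chemokine, rose from 4.82 ± 0.456 to 517 ± 134 CPM (log2 6.91, adjusted p 6.7e-09), and Tnf from 5.54 ± 1.38 to 159 ± 30.4 CPM (log2 5.00, adjusted p 1.8e-08). Il1b went from 0.478 to 49.6 CPM and Il12b, a subunit of interleukin-12, from 0.114 to 21.4 CPM, both from a PBS level at or under a few counts a library. With RNY1-/- EVFx 9 of 12 rose and 1 fell, with RNY1+/+ ProteinFx 8 of 10 rose and 0 fell, and with RNY1-/- ProteinFx 4 of 9 rose and 1 fell. The median log2 difference of the tested targets was 4.84, 3.72, 3.10 and 0.81 in these 4 comparisons, over the 12, 12, 10 and 9 genes tested. That of all genes tested was -0.03 in each. Targets near the floor with PBS, such as Il1b and Il12b, could reach the mean of 3 CPM only through the treated libraries. The number tested, the counts that rose and these medians are therefore partly set by the filter.

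Between the ProteinFx genotypes 7 of 10 targets fell with RNY1-/- and 0 rose, with a list median of -1.33 beside 0.02 for all genes tested. Of all genes, 1.17% were called lower and 0.659% higher. Il1b, the gene of interleukin-1β, fell from 39.6 ± 31.9 to 6.11 ± 1.91 CPM (log2 -2.74, adjusted p 0.0048), and Il1a from 140 ± 98.0 to 36.1 ± 6.76 CPM (log2 -2.07, adjusted p 0.0058). Cxcl2 fell from 68.7 ± 28.3 to 26.0 ± 7.19 CPM (log2 -1.55, adjusted p 0.0058) and Tnf from 22.6 ± 6.74 to 9.28 ± 1.87 CPM (log2 -1.35, adjusted p 0.0031). The chemokine genes Ccl3 and Ccl4 fell as well, Ccl3 from 304 ± 43.6 to 143 ± 11.3 CPM (log2 -1.18, adjusted p 0.00019) beside 168 ± 26.4 CPM with PBS, and Ccl4 from 841 ± 10.4 to 418 ± 48.9 CPM (log2 -1.10, adjusted p 0.00014). Nos2 was the seventh that fell, with overlapping groups. For Tnf, Cxcl2, Il1a and Il1b the highest RNY1+/+ library was replicate 4, as for Clec4e. Without it the RNY1+/+ means were 23.8 ± 5.27 CPM for Il1b, 90.9 ± 14.8 for Il1a, 54.8 ± 5.16 for Cxcl2 and 19.3 ± 1.12 for Tnf (n = 3). The log2 differences were then -1.95 (adjusted p 0.0011), -1.42 (adjusted p 0.0011), -1.19 (adjusted p 0.013) and -1.097 (adjusted p 0.0054) by edgeR, so these 4 stayed called, while Nos2 was at -1.51 with an adjusted p of 0.15. The part of the monocyte markers given above in these differences was not tested. Between the EVFx genotypes 3 of 11 fell, Tnf from 159 to 65.3 CPM (log2 -1.22, adjusted p 0.0002), Il1b from 49.6 to 20.7 CPM (log2 -1.21, adjusted p 0.00028) and Cxcl1 from 25.9 to 12.3 CPM (log2 -1.02, adjusted p 0.0015), and 0 rose. In that comparison 1.98% of all genes were called lower and 0.378% higher.

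**Figure D4:**
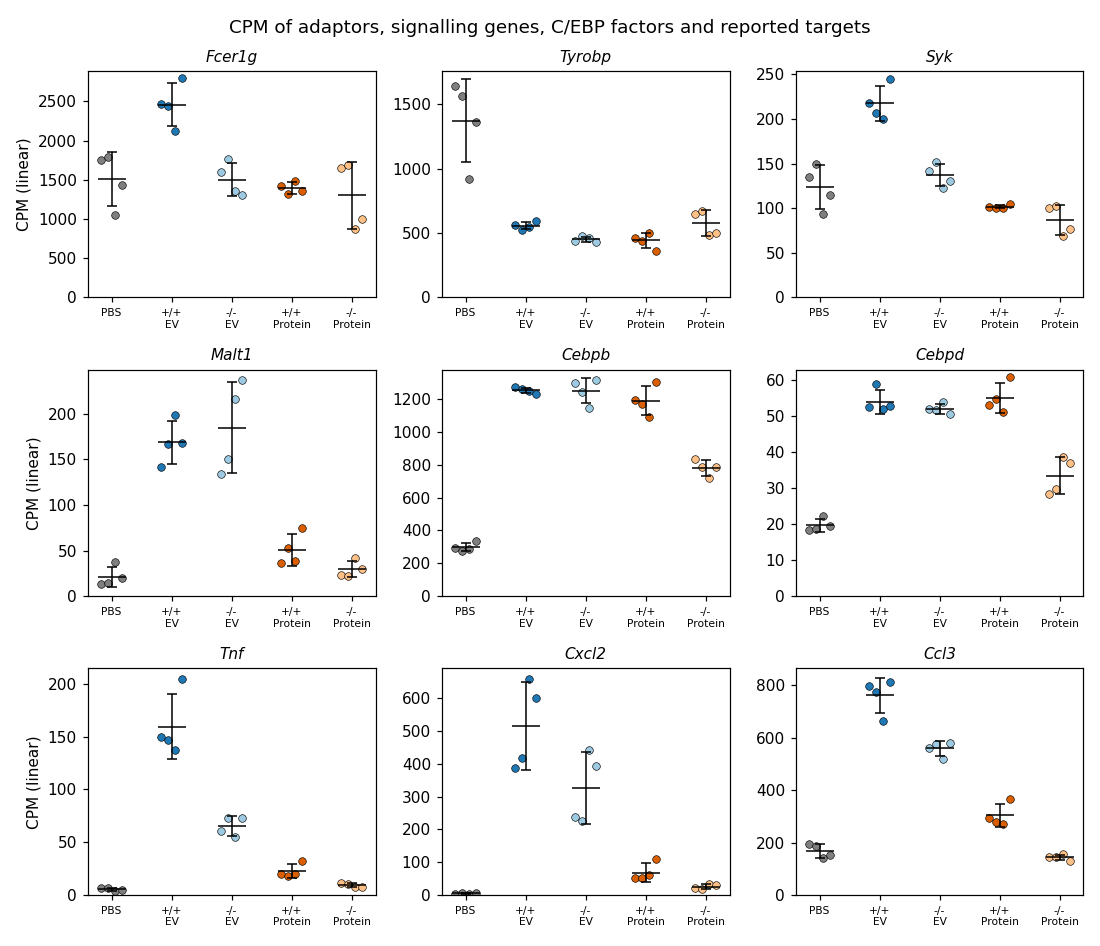
CPM (linear axis from 0, its own range in each panel) of 2 adaptors (Fcer1g, Tyrobp), 2 signalling genes (Syk, Malt1), 2 C/EBP factors (Cebpb, Cebpd) and 3 reported targets (Tnf, Cxcl2, Ccl3) in the 20 libraries. Points are libraries and bars are the group mean ± SD (n = 4). Cebpb lies between means of 1188 and 1254 CPM in 3 treated groups and at 781 CPM with RNY1-/- ProteinFx.

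Other C-type lectin receptors of the 43 listed went both ways. With RNY1+/+ EVFx against PBS 3 of 12 tested rose and 4 fell, with RNY1-/- EVFx 4 of 11 rose and 3 fell, with RNY1+/+ ProteinFx 6 of 14 rose and 3 fell, and with RNY1-/- ProteinFx 3 of 12 rose and 2 fell. Mrc1, the mannose receptor, fell from 704 ± 177 CPM with PBS to 54.3 ± 6.47 with RNY1+/+ EVFx (log2 -3.52, adjusted p 8.8e-08) and to 89.2 ± 14.9 with RNY1-/- EVFx, while it was at 598 ± 124 and 1065 ± 259 CPM with RNY1+/+ and RNY1-/- ProteinFx. Cd69, an early activation marker, rose in all 4 treated groups, from 0.984 CPM with PBS to 48.9, 54.0, 72.1 and 23.9 CPM. Between the ProteinFx genotypes Cd69 fell (log2 -1.71, adjusted p 0.00019), Olr1, the receptor for oxidised lipoprotein, fell (log2 -3.07, adjusted p 0.0027) and Clec10a, a galactose-type lectin, rose from 3.48 ± 0.989 to 10.4 ± 2.88 CPM (log2 1.503, adjusted p 0.0051). None of 12 was called between the EVFx genotypes by edgeR, where 6 had an unadjusted p under 0.05, beside 58.4% of all genes.

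With RNY1+/+ EVFx against PBS, 12 genes that restrain these receptors were tested. Lilrb4a, an inhibitory receptor, rose (log2 1.09, adjusted p 6.9e-05), Ptpn6, the phosphatase SHP-1, rose (log2 1.01, adjusted p 0.0039) and Dok2, an inhibitory adaptor, fell (log2 -1.19, adjusted p 0.00057). With RNY1-/- EVFx Lilrb4a rose and Dok2 fell, and with either ProteinFx Dok2 fell and 0 rose. Of the 6 ligand genes, Lgals9 rose with RNY1+/+ EVFx (log2 1.24, adjusted p 0.0055), with RNY1+/+ ProteinFx (log2 1.33, adjusted p 0.002) and with RNY1-/- ProteinFx (log2 1.13, adjusted p 0.02). Anxa1 fell with RNY1+/+ EVFx (log2 -1.43, adjusted p 0.0002). Sap130, the gene of a Mincle ligand, had means between 13.9 and 16.6 CPM in the 5 groups and no adjusted p under 0.05.

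Likeness to Clec4e was measured as the root mean square of the differences between centred log2 CPM values (TMM-scaled, prior count 2) over the 20 libraries, for 7551 genes with a mean of at least 10 CPM. The closest were Zfp811, a zinc finger gene, at 0.44, Fpr2, a formyl peptide receptor, at 0.50, Plpp1, a lipid phosphatase, at 0.54, Cxcl2 at 0.60 and Cxcl3, a chemokine, at 0.66. With PBS, Zfp811, Plpp1 and Cxcl3 were near the counting floor, at 0.357, 0.535 and 0.210 CPM. These 5 genes were picked for closeness over the same 20 libraries, so sharing the order of Clec4e is part of the choice. That order ran from PBS to RNY1-/- ProteinFx and RNY1+/+ ProteinFx. Fpr2 stood at 0.912, 9.53 and 49.0 CPM in these groups, and at 113 and 83.6 CPM with RNY1+/+ and RNY1-/- EVFx. For Clec12a, highest with PBS, the closest were Nrros at 0.09, Cmtm3 at 0.09, Cfp, the complement factor properdin, at 0.10, Pltp at 0.12 and Dennd4b at 0.13. Cfp went from 523 CPM with PBS to 263 and 207 CPM with RNY1+/+ and RNY1-/- EVFx and 316 and 364 CPM with RNY1+/+ and RNY1-/- ProteinFx.

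**Figure D5:**
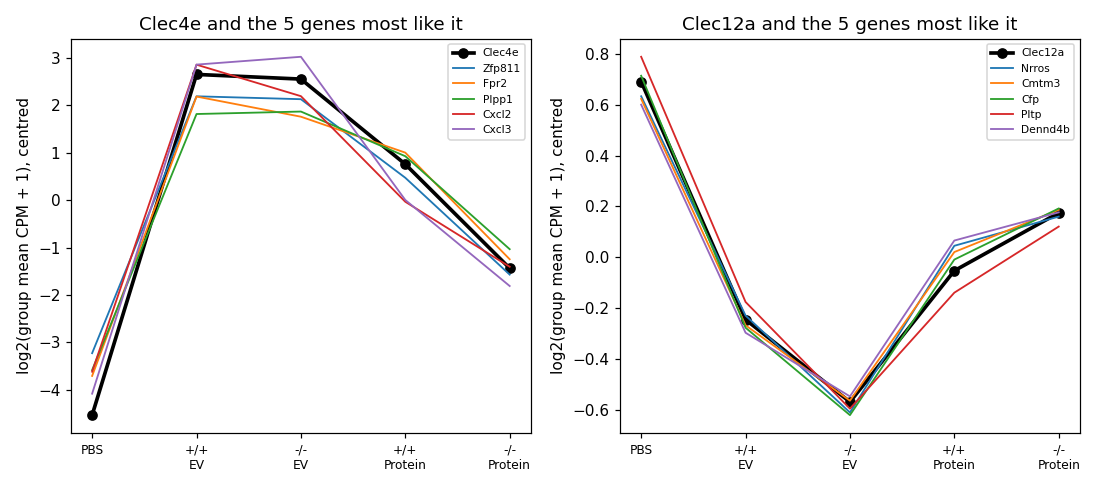
Group means on the log2(mean CPM + 1) scale, centred on each gene's mean over the 5 groups, for Clec4e (left, black) and Clec12a (right, black) and the 5 genes nearest to each. The lines of the left panel are lowest with PBS and next lowest with RNY1-/- ProteinFx, and those of the right panel are highest with PBS and lowest with RNY1-/- EVFx. The genes were picked for closeness over these libraries, so the shared shape comes from the choice.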

How the data were processed

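Libraries were made from poly(A) RNA by 3′-end sequencing with unique molecular identifiers. Per the submitters' processing notes and the study's methods, the authors trimmed reads with fastp 0.24.0, aligned them with STAR 2.7.11 to GRCm39, removed duplicates by molecular identifier and counted by strand with featureCounts (Subread 2.1.1), sharing out reads that map to several places. The authors deposited estimated counts per gene, fractional for 23.6 to 26.3% of the detected genes of a library, and CPM values. The deposited CPM equals a count over the library's total count, scaled to a fixed total. Total counts of 2510005 to 8277366 set the precision, and precision between groups rests on 4 libraries each.

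Estimated counts were rounded to whole numbers. TMM factors and edgeR 4.0.16 (R 4.3.3) quasi-likelihood tests were computed over the 8 libraries of each comparison. Genes had to pass filterByExpr and to average 3 CPM or more. A call needed a Benjamini-Hochberg adjusted p under 0.05 and a log2 fold change above 1 or below -1. The genotype by fraction interaction used 16 libraries. No sample was dropped or imputed. The fits were also run on simulated counts with a constant dispersion and without GC trends or library pairs. That run checked the code and does not bear on the calls in these libraries. The members and gene lists were chosen with earlier results of these data known. Named were all 9 members, Fcer1g, Syk, Card9, Cebpb and Sap130 always, and from each list and comparison up to 4 called genes with the largest changes, no overlap between groups and a mean of at least 10 CPM. Other genes named, such as Ccl3 and Ccl4, were chosen after their values were seen. Some listed genes are not reported here.

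Alternatives were DESeq2 1.42.0, total-count scaling, no filter, no fold limit, 1 fit of all 20 libraries, length and GC trends removed, each library left out and a replicate block. Leaving out pairs of RNY1-/- ProteinFx libraries, and the block together with GC, were added after seeing the data. The labels give the same replicate numbers to all groups without saying what they mark. Deviations from group means over 10640 genes correlated above 0.1 in every same-numbered pair only for RNY1-/- EVFx against PBS (0.14, 0.38, 0.24 and 0.13) and for RNY1-/- ProteinFx against RNY1-/- EVFx (0.22, 0.40, 0.29 and 0.27). The highest correlations were for RNY1-/- ProteinFx against PBS, at 0.51, 0.62 and 0.64 in replicates 1, 2 and 3, but 0.02 in replicate 4. Promoter windows are from RefSeq (GRCm38.p6), matched by symbol for 8 of 9 members, and GC content is from GENCODE M21 transcripts, matched by gene ID for all 9. Genes at the counting floor with PBS are given by CPM only. All library names share 1 prefix, which the labels do not call a batch.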

Additional observations from a re-analysis of the deposited data

Results flagged for a closer look

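In 235 combinations of a gene and a group of 4 libraries, 13 held a library whose gap to the nearest other was above Dixon's 95% critical value, where chance gives about 1 in 20, or 12. None of the 9 receptor genes was among them. Of the 13, 6 were in RNY1+/+ ProteinFx, namely Cxcl2 at 110.7 CPM, Il1a at 285.4, Il1b at 87.1, Tnf at 32.6, Il12b at 1.01 and Rela at 7.10. For the first 4 that library was replicate 4, also the highest for Clec4e in its group. The others were Anxa1 at 324.4 CPM and Cebpd at 58.9 CPM in RNY1+/+ EVFx, Lilrb4a at 2191 and Olr1 at 2.96 in RNY1-/- EVFx, Ly75 at 5.58 in RNY1-/- ProteinFx, and Mrc1 at 967.9 and Il12b at 0.457 in PBS.

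The genotype difference of 11 pathway genes changed between the fractions by the interaction test in edgeR, past both limits. Of 81 tested, 2 were called higher, beside 5.33% of 10443 genes, and 9 lower, beside 2.46%. These 11 calls were 5 without RNY1+/+ ProteinFx replicate 4 or RNY1-/- ProteinFx replicate 2, 1 without RNY1-/- ProteinFx replicates 1 and 2, and 7 with length and GC trends removed. The ProteinFx difference minus the EVFx difference, on the log2 scale, was -1.13 for Malt1 (adjusted p 0.02), 1.29 for Rela (adjusted p 0.0069), -1.54 for Il1b (adjusted p 0.043), -2.08 for Egr1 (adjusted p 0.012), -1.56 for Ptgs2 (adjusted p 0.022) and -1.76 for Nos2 (adjusted p 0.037). It was -1.58 for Il1a (adjusted p 0.012), 1.56 for Clec10a (adjusted p 0.012), -1.01 for Cd302 (adjusted p 0.0019), -1.93 for Cd69 (adjusted p 0.0007) and -2.78 for Olr1 (adjusted p 0.022).

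For Clec4n with fluid of both genotypes, and for Clec7a with RNY1-/- fluid, all libraries of one fraction lay on one side of the PBS libraries and all of the other fraction on the other side. Clec4n differed from PBS by 1.53 with RNY1+/+ EVFx and -2.78 with RNY1+/+ ProteinFx, and by 0.93 with RNY1-/- EVFx and -1.93 with RNY1-/- ProteinFx. Clec7a differed from PBS by -1.39 with RNY1-/- EVFx and 0.45 with RNY1-/- ProteinFx, while RNY1+/+ ProteinFx overlapped with PBS. The value of 0.45 ran from 0.04 to 0.58 over the processing alternatives. Set directly against EVFx of the same genotype, ProteinFx differed by -4.32 (RNY1+/+) and -2.83 (RNY1-/-) for Clec4n and by 1.85 (RNY1-/-) for Clec7a. These values are a description with no test, since the genes were chosen with them known.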

How the results depend on the processing

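Over 72 pairs of a receptor gene and a comparison, 30 were called, and none of these changed direction under any alternative, while 15 pairs that were not called did. With no fold limit, the called receptor genes were 8 for RNY1+/+ ProteinFx against PBS, 9 for RNY1-/- ProteinFx against PBS, 2 between the EVFx genotypes, 2 between the ProteinFx genotypes and 7 between the RNY1+/+ fractions, beside 55.2, 35.7, 52.1, 5.57 and 63.3% of all genes tested. In the same setting the pathway genes called were 55 for the EVFx of each genotype against PBS, 35 for RNY1-/- ProteinFx against PBS, 40 and 18 between the EVFx and ProteinFx genotypes, 52 and 42 between the RNY1+/+ and RNY1-/- fractions, and 33 for the interaction. The pathway genes tested numbered 75 to 81. The shares of all genes were 44.5 and 58.3%, 35.7%, 52.1 and 5.57%, 63.3 and 29.2%, and 33.0% in that order. With length and GC trends removed, pathway calls were 2 between the EVFx genotypes, from 4, and 7 for the interaction, from 11. Without RNY1-/- ProteinFx replicates 3 and 4, pathway calls were 11 against PBS, from 17, and receptor calls between the ProteinFx genotypes were 2, from 1. Without its replicates 1 and 2, the interaction gave 1 pathway call, from 11. The cause was not tested. Leaving out 1 library at a time gave 2 to 5 pathway calls between the EVFx genotypes, with 2 without RNY1+/+ EVFx replicate 4, and 5 to 13 for the interaction, with 7 without RNY1-/- EVFx replicate 4 and 5 without RNY1+/+ ProteinFx replicate 4 or RNY1-/- ProteinFx replicate 2. The replicate block gave 6, 6, 5 and 5 receptor calls against PBS in the order of the report, 0 and 1 between the genotypes of EVFx and ProteinFx and 3 and 4 between the fractions, and 36, 31, 29, 17, 3, 11, 22 and 18 pathway calls, with 12 for the interaction. It moved no count by over 1.5 times. The largest move of a receptor gene on leaving out 1 library was in Clec4e for RNY1+/+ ProteinFx against PBS, from 5.54 to 5.25 on the log2 scale without RNY1+/+ ProteinFx replicate 4. Depth limits Clec5a and the genes near the counting floor with PBS.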
